A study of Rattus norvegicus with 12 samples.

Results

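The 6 genes described here belong to the rarer endocrine cells of the islet and were followed across 12 RNA sequencing libraries of rat offspring islets. They are Ppy, Pyy, Sst, Hhex, Rbp4 and Ghsr. They were chosen by name as genes of delta cells and PP cells, and all 6 were found by symbol among the 17407 gene entries of the deposited table. Delta cells secrete somatostatin, which restrains both insulin and glucagon secretion from the neighbouring beta and alpha cells. PP cells secrete pancreatic polypeptide, and in rodents they lie mostly in the islets of the pancreatic head. Pancreatic polypeptide, peptide YY and neuropeptide Y form a peptide family that acts through the Y receptors. Both cell types make up a small part of an islet, so their genes are read here against a background of beta cell RNA.

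The animals were Sprague-Dawley rats, and the question was what a dam's gestational diabetes mellitus (GDM) does to the islets of its pups. Dams ate either high-fat, high-sucrose food (HFS, 45% fat), on which they developed GDM, or low-fat food (LF, 10% fat), on which they stayed lean. The diets began 6 weeks before mating and went on through suckling, litters were cut to equal size at birth, and pups were weaned onto HFS or LF food for 12 weeks. Hand-picked islets were taken at 15 weeks of age. The 4 groups of 3 libraries were GDM-HFS (GDM dam, HFS weaning), GDM-LF (GDM dam, LF weaning), Lean-HFS (lean dam, HFS weaning) and Lean-LF (lean dam, LF weaning). The dams' GDM was brought on by the diet itself, so maternal diabetes and maternal diet cannot be told apart. Which litter each pup came from, and its sex, is not stated, so every p-value rests on the spread among the libraries as deposited. In bulk islet RNA, fewer cells of a type and less RNA per cell cannot be told apart.

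The libraries held between 11469290 and 27492858 reads over genes. Values are given as scaled values, that is the deposited depth-scaled signal divided by a factor per library (0.83 to 1.27). A scaled value of 1 stands for 1.73 to 6.02 reads, and floors on such values cover counting error only. Intervals on log2 differences rest on the spread among the libraries. The islet hormones Ins1, Ins2 and Gcg were high in all 4 groups. Some properties of the libraries differed with the dam or set single libraries apart. Ribosomal RNA took 1.84% to 4.34% of gene reads in GDM-HFS, 7.0% to 8.55% in GDM-LF, 24.7% to 39.0% in Lean-HFS and 1.84% to 30.4% in Lean-LF. The log2 difference between dams ran against transcript length across all tested genes (Spearman's rho -0.40, a description across genes, which are not independent). Its median was 0.44 over the 1334 genes under 1000 bases and -0.01 over the longer ones. Library GDM-LF 2 had the highest sum over 16 acinar genes, and library GDM-LF 1 the highest sum over 7 stellate and fibroblast genes. A letter K of no stated meaning in the titles marked GDM-LF 1, GDM-LF 2 and GDM-HFS 3, all from GDM dams, against G for the other libraries.

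Ppy and Pyy are neighbours. In rat build rn5, as the deposited table gives it, Ppy lies on chromosome 10 from 89831063 to 89832358 on the minus strand, with a summed exon length of 481 bases. Pyy lies from 89837471 to 89838593 on the same strand (516 bases), 5112 bases away, with 0 other genes of the table between them. Sst lies on chromosome 11 from 80374260 to 80375537 (minus strand, 653 bases). Rbp4 (264286998 to 264294200, minus strand, 896 bases) and Hhex (263583988 to 263589575, plus strand, 1596 bases) share chromosome 1, 697422 bases apart with 5 genes of the table between them. Ghsr lies on chromosome 2 from 132784869 to 132788245 (plus strand, 1346 bases). Reads were summed over exons on both strands, and 0 other entries of the table overlapped any of the 6 genes. Ppy, Pyy, Sst and Rbp4 are under 1000 bases, and of the 1334 tested genes in that range 27.7% were higher in offspring of GDM dams.

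The promoter windows of the 3 hormone genes and of Rbp4 are shown because Ppy and Rbp4 carried the difference between dams, and Ppy and Pyy correlated across libraries. The sequences are RefSeq's on build GRCr8, a later build than the one the reads were counted on, and all 6 genes matched. Each runs from 250 bases before the annotated start to 50 bases after it. Capitals mark matches to 3 motifs that were looked for on both strands with no mismatch: TATAAA (the TATA box), TGACGTCA (the cAMP response element) and TAATTA (a homeodomain core). None of the 3 overlaps another in these windows.

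The Ppy window (GRCr8, chr10:87556187-87556486, minus strand) holds the TATA box at position -32, counted from the annotated start as 0.
Ppy: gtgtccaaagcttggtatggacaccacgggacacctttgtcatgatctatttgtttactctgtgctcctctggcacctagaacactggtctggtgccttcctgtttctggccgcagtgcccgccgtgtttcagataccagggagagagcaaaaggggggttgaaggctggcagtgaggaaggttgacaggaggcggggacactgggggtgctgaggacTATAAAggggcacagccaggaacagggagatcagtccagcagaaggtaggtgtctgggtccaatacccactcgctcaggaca
The Pyy window (GRCr8, chr10:87562421-87562720, minus strand) holds none of the 3 motifs.
Pyy: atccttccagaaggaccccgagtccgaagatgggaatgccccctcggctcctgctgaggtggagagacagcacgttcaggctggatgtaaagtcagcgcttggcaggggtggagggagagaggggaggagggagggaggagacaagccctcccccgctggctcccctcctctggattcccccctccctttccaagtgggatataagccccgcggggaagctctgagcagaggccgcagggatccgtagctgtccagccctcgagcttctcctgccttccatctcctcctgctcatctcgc
The Sst window (GRCr8, chr11:90461296-90461595, plus strand) holds TAATTA at position -246 and the cAMP response element at position 2.
Sst: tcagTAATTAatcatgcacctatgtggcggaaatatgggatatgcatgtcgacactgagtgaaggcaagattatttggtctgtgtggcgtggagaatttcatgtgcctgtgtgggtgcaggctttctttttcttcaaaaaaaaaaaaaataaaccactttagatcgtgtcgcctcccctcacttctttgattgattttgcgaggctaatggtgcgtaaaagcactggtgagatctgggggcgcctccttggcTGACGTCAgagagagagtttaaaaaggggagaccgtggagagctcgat
The Rbp4 window (GRCr8, chr1:245313502-245313801, minus strand) holds the TATA box at position -50.
Rbp4: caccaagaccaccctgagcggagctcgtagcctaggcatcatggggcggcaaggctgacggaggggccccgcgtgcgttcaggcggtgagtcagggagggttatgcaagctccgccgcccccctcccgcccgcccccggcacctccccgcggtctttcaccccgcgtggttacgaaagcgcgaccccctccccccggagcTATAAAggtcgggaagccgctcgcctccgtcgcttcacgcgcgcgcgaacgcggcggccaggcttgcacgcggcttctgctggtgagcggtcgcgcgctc

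Among 33469 promoter windows of the same length, 14.2% held TATAAA, 1.83% held TGACGTCA and 5.36% held TAATTA. The windows of Hhex and Ghsr held none of the 3. These matches are letters in a window and were not tied to any value below.

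Levels per kilobase of exon put the 6 genes far apart. Averaged over the 12 libraries, the level was 22040 scaled units per kilobase for Ppy, 2977 for Pyy, 2577 for Sst, 124 for Rbp4, 7.38 for Hhex and 0.496 for Ghsr. Of 12336 genes ordered per kilobase, Ppy had rank 9, Pyy rank 123, Sst rank 152, Rbp4 rank 2529 and Hhex rank 9538. Of the 6 genes, 5 passed the filter on low values (a mean scaled value of at least 1) and were tested, and Ghsr was not. The hormone genes of both cell types were abundant, while Hhex, a transcription factor, was read only 14 to 71 times per library.

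**Figure D1:**
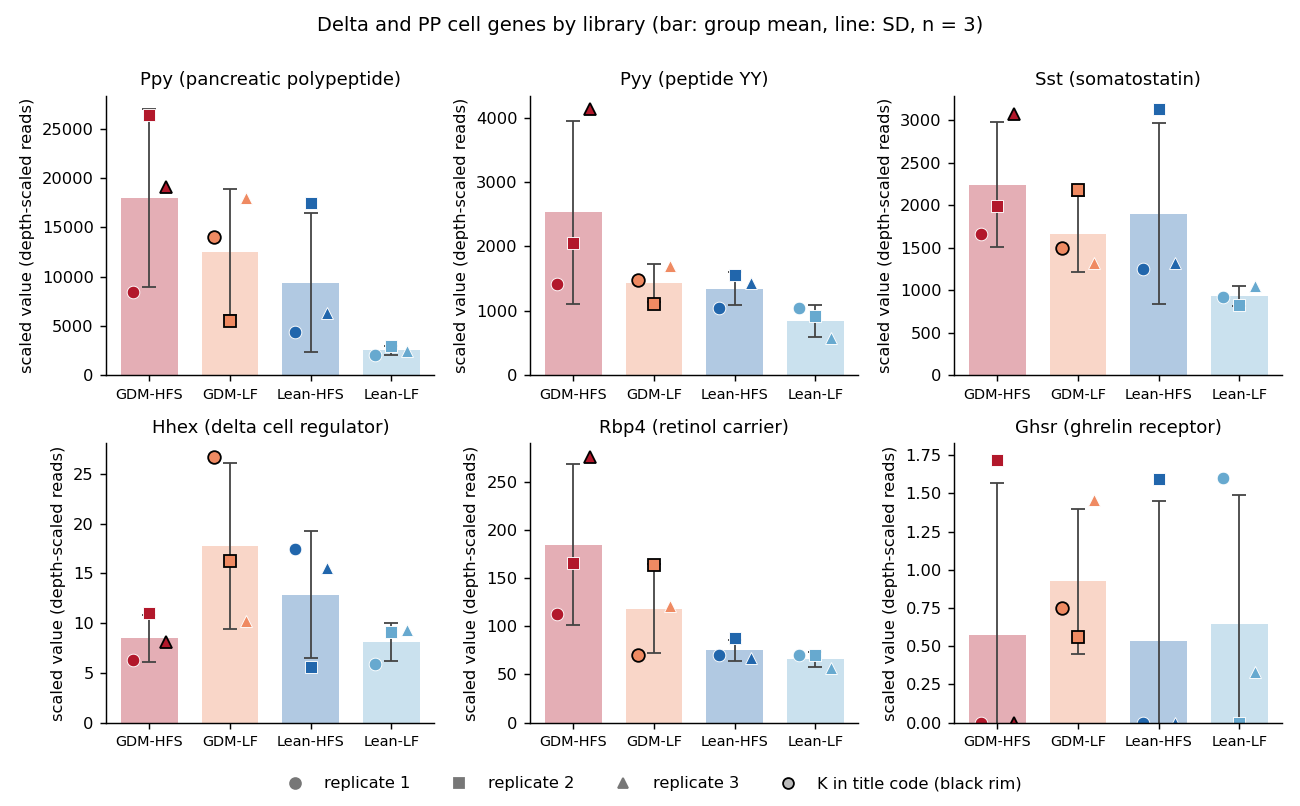
Scaled values (depth-scaled reads, linear axis from 0) of the 6 genes in the 12 libraries. Bars are group means, lines the SD over 3 libraries, marker shapes the replicate number, and black rims mark titles with the letter K. The 3 Lean-LF libraries sit at the low end for Ppy, between 2012 and 2985, and all 6 lean-dam libraries lie at or below 88.0 for Rbp4.

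Ppy, which encodes pancreatic polypeptide, was higher in offspring of GDM dams than in offspring of lean dams, 3.06-fold on the log scale averaged over both weaning diets. It measured 8463, 26407 and 19150 in the GDM-HFS libraries and 14026, 5459 and 18009 in the GDM-LF libraries. It measured 4371, 17528 and 6317 in the Lean-HFS libraries and 2012, 2985 and 2488 in the Lean-LF libraries. The 3 Lean-LF libraries were the 3 lowest of all and close to each other, whereas Lean-HFS 2 stood among the high GDM libraries, so the dam groups overlapped. Group means were 18007 ± 9026 in GDM-HFS, 12498 ± 6413 in GDM-LF, 9405 ± 7102 in Lean-HFS and 2495 ± 487 in Lean-LF (SD, n = 3 each). The groups stood in that order from high to low, and of the neighbours in it only Lean-HFS and Lean-LF did not overlap. In 3.68% of all genes the Lean-HFS libraries were likewise wholly above the Lean-LF libraries. The log2 difference between dams was 1.61 ± 0.393 (SE), which passed limma's test over all genes (adjusted p = 0.0238). None of the 5 tested genes had all 6 GDM libraries above all 6 lean ones, as 2.8% of genes did (2.32% were wholly below). Of all 12339 genes tested, 11.6% passed this contrast in either direction and 6.13% were higher.

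Taken by weaning diet, Ppy in GDM-LF stood above Lean-LF in all 3 against 3 libraries, with a log2 difference of 2.18 ± 0.556 that did not pass (limma adjusted p = 0.0569). In that contrast 1.58% of genes passed (0.851% higher and 0.729% lower), and 12.9% of genes had all 3 GDM-LF libraries above all 3 Lean-LF libraries. Against Lean-HFS, GDM-HFS was higher by 1.05 ± 0.556 on the log2 scale with overlapping libraries (limma adjusted p = 0.414). The difference between these differences was -1.13 ± 0.787 on the log2 scale and did not pass (limma adjusted p = 0.806).

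The Ppy call held in 7 of the 12 fits that left out 1 library, and the log2 difference ran from 1.40 to 1.90 over all 12. In the fits that lost the call, the count over all genes also fell. It went from 1426 to between 183 (without Lean-LF 2) and 784 (without GDM-HFS 2). In the fits that kept the call the count ran from 784 (without GDM-LF 2) to 2471 (without Lean-LF 3). It thus fell in some of these too. Without GDM-HFS 2 the log2 difference between dams was 1.44 (limma adjusted p = 0.0557), without GDM-HFS 3 it was 1.55 (0.0648), without Lean-HFS 1 1.40 (0.0668), without Lean-LF 1 1.54 (0.0765) and without Lean-LF 2 1.68 (0.0597). Without the K libraries it was larger, 1.90, and did not pass (adjusted p = 0.195). With the genome-wide length trend removed from each library it was 0.96 (adjusted p = 0.164), and with the rRNA share as a covariate 1.42 (0.774). All 16 acinar genes had a difference above 0 between dams (median log2 1.03, 0 passed, 3 with an unadjusted p under 0.05), and their summed level was 113793 to 229242 in GDM-HFS, 40424 to 710180 in GDM-LF, 43355 to 237175 in Lean-HFS and 28568 to 80973 in Lean-LF. The library with the highest sum, GDM-LF 2, had the lowest Ppy of the 6 GDM libraries. The library with the lowest sum, Lean-LF 1, had the lowest Ppy of all. With the acinar level as a covariate the difference was 1.94 (adjusted p = 0.0297). The part of transcript length, of rRNA and of acinar RNA in the difference was not tested beyond these fits.

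Pyy, which encodes peptide YY and is made by PP cells and other endocrine cells of the rodent islet as well as by the gut, had the same order of groups as Ppy, with smaller distances. It measured 1414, 2048 and 4133 in GDM-HFS and 1478, 1107 and 1692 in GDM-LF, against 1048, 1552 and 1435 in Lean-HFS and 1041, 915 and 570 in Lean-LF. GDM-HFS 3 stood far above the rest, and the lowest GDM-LF library lay close to the highest Lean-LF library. The log2 difference between dams was 0.78 ± 0.242 and missed the threshold (limma adjusted p = 0.0522). It passed with DESeq2 on the recovered reads (0.84, adjusted p = 0.00796) and with edgeR on DESeq2 size factors (0.84, adjusted p = 0.0476). It also passed with a filter at a mean of at least 5 (0.78, limma adjusted p = 0.0497) and without GDM-HFS 1 (0.96, limma adjusted p = 0.0282). It was 0.57 without GDM-HFS 3 (limma adjusted p = 0.103). With the length trend removed it was 0.17 (adjusted p = 0.730). On each diet alone it was 0.79 for GDM-HFS against Lean-HFS and 0.78 for GDM-LF against Lean-LF (limma adjusted p = 0.318 and 0.165). Gut RNA was looked for, since Pyy is also a gut hormone gene. The summed level of 7 gut genes was 200 to 306 in GDM-HFS, 195 to 214 in GDM-LF, 186 to 334 in Lean-HFS and 182 to 302 in Lean-LF. Fabp2, of absorptive gut cells, was at 0 in GDM-HFS and Lean-LF, Cdx2 in Lean-HFS and Nts in Lean-LF, and none in GDM-LF. Of 4 tested genes of the list, 3 had a difference above 0 between dams (median log2 0.46, against 0.03 over all genes). Of the 4, 1 was higher with limma, beside 6.13% of all genes. Within that list Cck, a gut hormone gene that rodent islets can also express, was higher in offspring of GDM dams (59.4 against 26.4 on average, log2 1.19 ± 0.266, limma adjusted p = 0.0188).

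Sst, which encodes somatostatin, was lowest in Lean-LF and overlapped among the other groups. It measured 1660, 1990 and 3069 in GDM-HFS, 1495, 2173 and 1324 in GDM-LF, 1244, 3131 and 1321 in Lean-HFS and 914, 821 and 1052 in Lean-LF. From high to low the groups ran GDM-HFS, Lean-HFS, GDM-LF and Lean-LF, and of neighbours only GDM-LF and Lean-LF did not overlap. In 12.9% of all genes the GDM-LF libraries were likewise wholly above the Lean-LF libraries. The highest value of all came from Lean-HFS 2. The log2 difference between dams was 0.57 ± 0.235, with a 95% interval of 0.07 to 1.08, and it did not pass (limma adjusted p = 0.120). Without Lean-HFS 2 it was 0.78 and passed (adjusted p = 0.0295), and with the length trend removed it was 0.06 (0.869). GDM-LF exceeded Lean-LF by 0.81 (limma adjusted p = 0.140) and GDM-HFS exceeded Lean-HFS by 0.33 (0.689), a difference whose sign turned with the length trend removed (-0.16) and with the rRNA share as a covariate (-0.01).

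**Figure D2:**
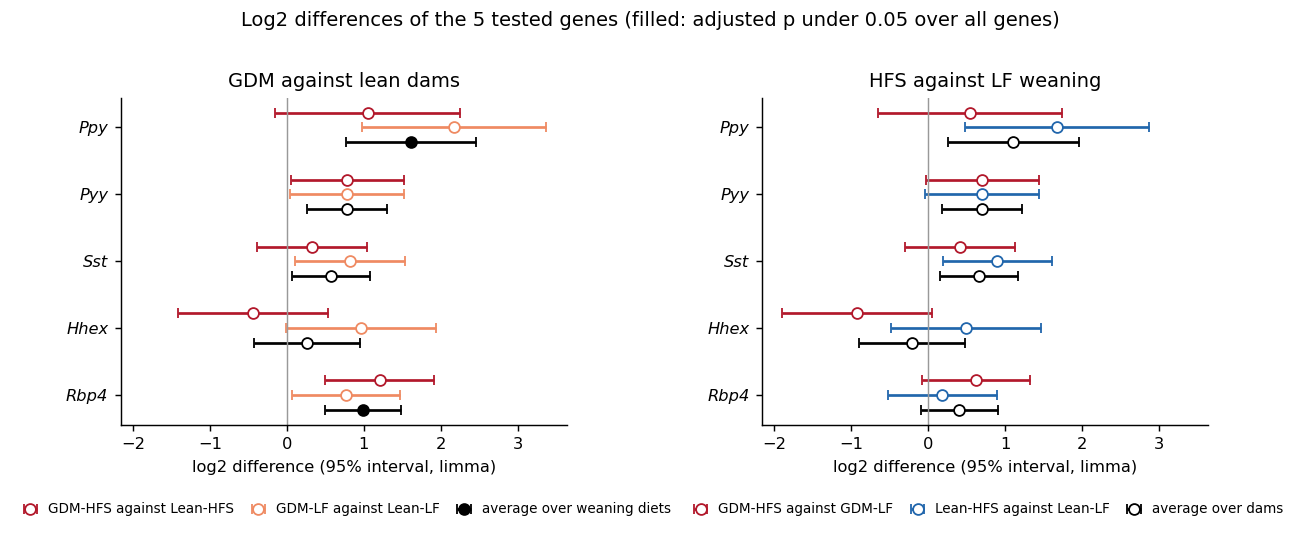
Log2 differences with 95% intervals from limma (horizontal axis) of the 5 tested genes, for GDM against lean dams on the left and HFS against LF weaning on the right. Filled points passed an adjusted p of 0.05 over all genes. Only the averaged dam differences of Ppy (1.61) and Rbp4 (0.99) are filled.

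Rbp4, the plasma carrier of retinol and a gene enriched in mouse delta cells, was higher in offspring of GDM dams, 1.98-fold averaged over the diets. It measured 113, 166 and 277 in GDM-HFS and 70.8, 164 and 121 in GDM-LF. It measured 69.9, 88.0 and 67.4 in Lean-HFS and 70.0, 70.5 and 56.8 in Lean-LF. Of the 6 GDM libraries, 5 lay above all 6 lean libraries, and GDM-LF 1, at 70.8, lay among them. The lean libraries were tight, with 75.1 ± 11.2 in Lean-HFS and 65.8 ± 7.74 in Lean-LF, against 185 ± 83.7 in GDM-HFS and 119 ± 46.5 in GDM-LF (SD, n = 3 each). The log2 difference between dams was 0.99 ± 0.231 and passed (limma adjusted p = 0.0213). By diet it was 1.20 ± 0.327 for GDM-HFS against Lean-HFS (limma adjusted p = 0.192), where all 3 GDM-HFS libraries were above all 3 Lean-HFS libraries, as in 12.7% of genes, and 0.0081% of genes passed. It was 0.77 ± 0.327 for GDM-LF against Lean-LF (0.154). With DESeq2 on the recovered reads the first of these passed (log2 1.30, adjusted p = 0.0158).

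The Rbp4 call was lost without GDM-HFS 3 (log2 0.82, limma adjusted p = 0.0559), Lean-HFS 1 (0.96, 0.0569), Lean-LF 1 (1.01, 0.0610) or Lean-LF 2 (1.01, 0.0580), and without the K libraries (0.87, 0.195). It was also lost with the length trend removed (0.64, 0.0925), with the acinar level as a covariate (0.83, 0.0638) and with the rRNA share as a covariate (1.02, 0.774). Rbp4 is made by fat cells too. Of 7 adipocyte genes, Retn was at 0 in every library, Lep was at 0 in GDM-HFS, GDM-LF and Lean-LF, and Adipoq averaged 1.24 in GDM-HFS, 1.98 in GDM-LF, 0.830 in Lean-HFS and 0.290 in Lean-LF. The list's summed level was 227 to 399 in GDM-HFS, 317 to 477 in GDM-LF, 155 to 274 in Lean-HFS and 154 to 234 in Lean-LF, and all 4 of its tested members had a difference above 0 (median log2 0.75). Of these 1 was higher in offspring of GDM dams, beside the 6.13% of all genes that were. It was Cidec, a lipid droplet gene, with 224 in GDM-HFS and 283 in GDM-LF against 152 in Lean-HFS and 141 in Lean-LF (log2 0.76, limma adjusted p = 0.0407). Fabp4, the fatty acid carrier of fat cells, had 50.2 and 65.0 against 33.0 and 30.0 in the same groups (log2 0.97, limma adjusted p = 0.0570). The part of fat cell RNA in the Rbp4 difference was not tested.

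**Figure D3:**
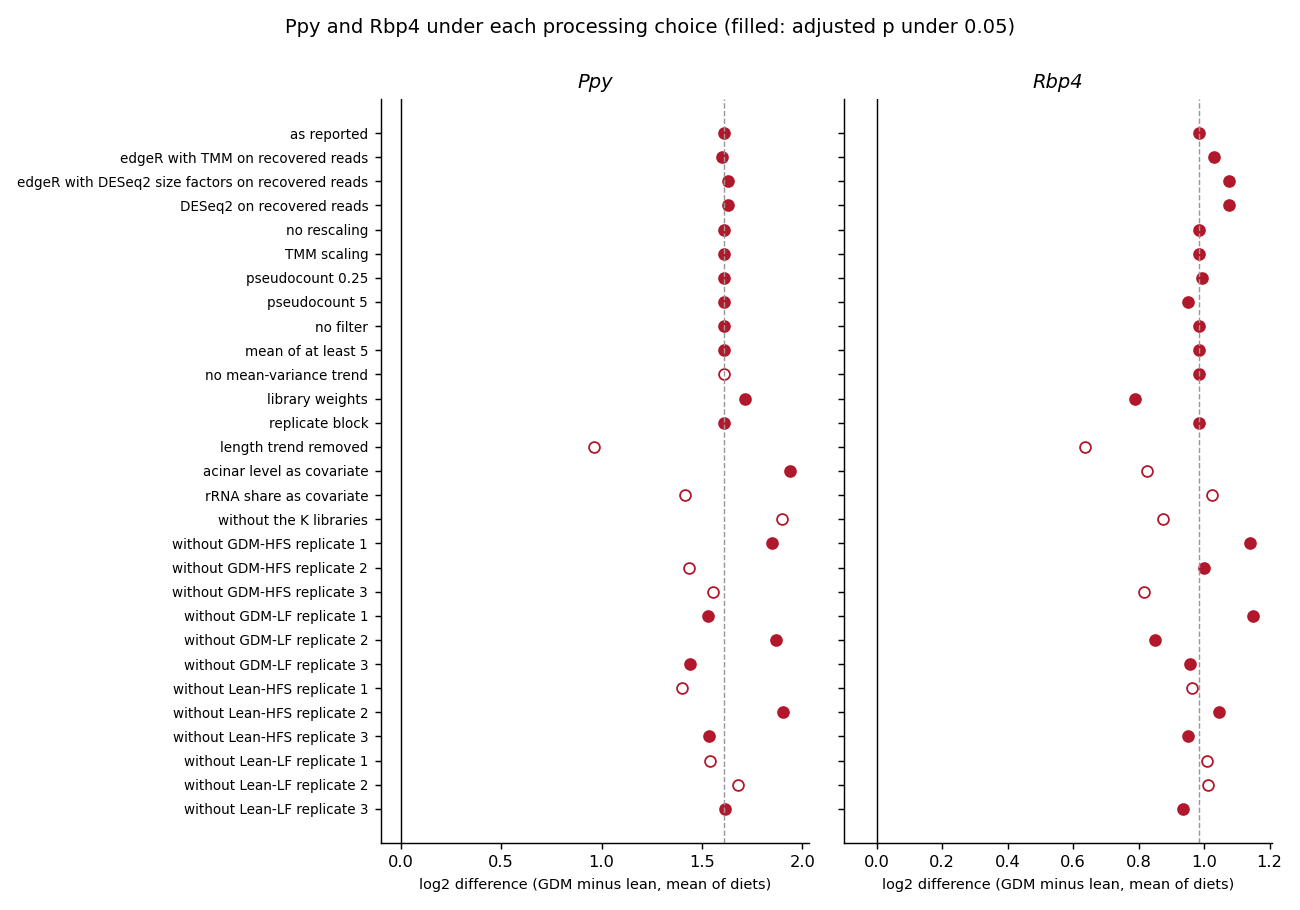
Log2 difference between GDM and lean dams (horizontal axis) of Ppy and Rbp4 under the reported fit and 28 other processing choices. Filled points passed an adjusted p of 0.05, the dashed line is the reported value. Every point is above 0 for both genes, between 0.96 and 1.94 for Ppy and between 0.64 and 1.15 for Rbp4, and 19 Ppy alternatives and 20 Rbp4 alternatives passed.

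Hhex, which is needed for delta cell differentiation in mice, had another order of groups than Sst, with GDM-LF highest. It measured 6.29, 10.97 and 8.08 in GDM-HFS, 26.7, 16.3 and 10.2 in GDM-LF, 17.5, 5.57 and 15.5 in Lean-HFS and 5.86, 9.13 and 9.31 in Lean-LF. The 3 GDM-LF libraries lay above the 3 Lean-LF libraries, as in 12.9% of all genes, and the other groups overlapped. The log2 difference between dams was 0.26 ± 0.320 (limma adjusted p = 0.608), made of 0.97 for GDM-LF against Lean-LF (0.191) and -0.45 for GDM-HFS against Lean-HFS (0.689). The interaction was -1.41 ± 0.641 and did not pass over all genes (limma unadjusted p = 0.0453, limma adjusted p = 0.784). No gene passed the interaction with limma (0%), 730 had an unadjusted p under 0.05, and edgeR and DESeq2 called 0.

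From high to low the groups ran GDM-LF, Lean-HFS, GDM-HFS and Lean-LF, and all neighbours overlapped. The library with the most Hhex, GDM-LF 1, also had the highest summed level of 7 stellate and fibroblast genes (7708, against 978 and 756 in the other GDM-LF libraries). That sum was 487 to 614 in GDM-HFS, 335 to 1340 in Lean-HFS and 624 to 1253 in Lean-LF, and the library with the least Hhex, Lean-HFS 2, had the lowest sum of all. Duct genes, of the epithelium in which Hhex is also known to be expressed, summed to 518 to 615 in GDM-HFS, 518 to 1759 in GDM-LF, 195 to 807 in Lean-HFS and 229 to 544 in Lean-LF. Without GDM-LF 1 the difference of GDM-LF over Lean-LF was 0.64 (limma adjusted p = 0.474). The part of these cells in the Hhex values was not tested.

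**Figure D4:**
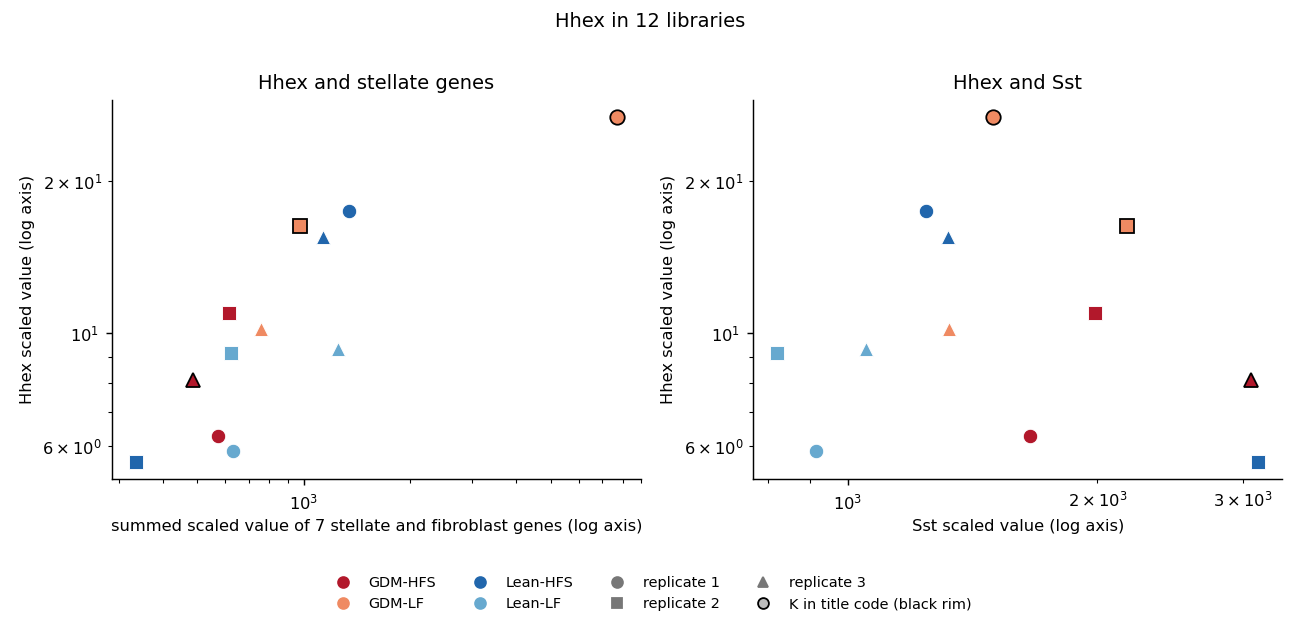
Hhex scaled value (vertical log axis) in 12 libraries against the summed scaled value of 7 stellate and fibroblast genes (left) and against the Sst scaled value (right), both on log axes. GDM-LF 1 has the highest Hhex (26.7) and the highest sum (7708), and Lean-HFS 2 the lowest Hhex (5.57) beside the highest Sst (3131).

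Ghsr, the ghrelin receptor through which ghrelin acts on delta cells in mice, was at the edge of detection. It had 29 reads in all 12 libraries together, with 0 in 5 of them. The counts were 0, 8 and 0 in GDM-HFS, 2, 2 and 5 in GDM-LF, 0, 4 and 0 in Lean-HFS and 6, 0 and 2 in Lean-LF. A count of 0 allows up to 3 reads, a scaled value of 0.674 and 1.73 in the 2 GDM-HFS libraries at 0, 1.34 and 1.37 in the 2 of Lean-HFS and 1.30 in the 1 of Lean-LF. All groups had at least 1 library with reads, and no difference was detectable at this depth.

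Weaning on HFS diet was compared with LF weaning next. None of the 5 tested genes passed this contrast, nor did any gene of the table (0% with limma, while 611 genes had an unadjusted p under 0.05, edgeR called 0 and DESeq2 called 2). Averaged over dams, HFS weaning gave log2 differences of 1.11 for Ppy, 0.70 for Pyy, 0.66 for Sst, 0.40 for Rbp4 and -0.21 for Hhex, with limma adjusted p-values from 0.883 to 0.937. Unadjusted, 3 of the 5 (Ppy, Pyy and Sst) were under 0.05. In offspring of lean dams, all 3 Lean-HFS libraries were above all 3 Lean-LF libraries for Ppy, Pyy and Sst, as for 3.68% of all genes (3.95% were wholly below). The log2 differences were 1.67 for Ppy, 0.70 for Pyy and 0.90 for Sst, and the limma adjusted p was 1 for each. In offspring of GDM dams, GDM-HFS exceeded GDM-LF by 0.54 for Ppy, 0.70 for Pyy, 0.41 for Sst and 0.62 for Rbp4, and Hhex stood at -0.92, all with overlapping libraries (limma adjusted p 0.519 to 0.749), while 7.42% of all genes were wholly above and 6.61% wholly below. These contrasts share libraries with the dam contrasts, so their values are not independent of them.

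Ratios between genes within a library do not depend on the scaling between libraries. Per kilobase, Ppy was 10.2 times Sst in GDM-HFS, 9.29 times in GDM-LF, 6.17 times in Lean-HFS and 3.62 times in Lean-LF (geometric means). Libraries ran from 6.92 to 18.0 in GDM-HFS, 3.41 to 18.5 in GDM-LF, 4.77 to 7.60 in Lean-HFS and 2.99 to 4.94 in Lean-LF, so 4 of the 6 GDM libraries lay above all lean libraries, and GDM-HFS 1 and GDM-LF 2 lay within the lean range. The log2 ratio of Ppy to Sst differed between dams by 1.04 (two-sided exact permutation p = 0.045, adjusted over 7 ratios 0.245; the 400 splits within diets allow 0.005 at the smallest). The ratio of Ppy to Pyy differed by 0.83 (exact permutation p = 0.07, adjusted 0.245). Sst against Gcg, the glucagon gene of alpha cells, differed by -0.07 (exact permutation p = 0.825, adjusted 0.825), and Ppy against Gcg by 0.97 (exact permutation p = 0.22, adjusted 0.308). Sst against Ins2 differed by 0.51 (exact permutation p = 0.105, adjusted 0.245) and Rbp4 against Sst by 0.42 (exact permutation p = 0.16, adjusted 0.280). None of the 7 ratios passed after adjustment for dam or for weaning diet.

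As a share of the summed per-kilobase level of Ins1, Ins2, Gcg, Sst, Ppy and Pyy, the PP cell hormone gene Ppy took 0.879% ± 0.499 in GDM-HFS, 0.741% ± 0.298 in GDM-LF, 0.566% ± 0.399 in Lean-HFS and 0.169% ± 0.0306 in Lean-LF (SD, n = 3 each). Sst took 0.0780%, 0.0791%, 0.0843% and 0.0465% in the same groups, and Pyy 0.109%, 0.0815%, 0.0771% and 0.0539%. The share of Gcg was 2.79% in GDM-HFS, 1.95% in GDM-LF, 1.63% in Lean-HFS and 1.62% in Lean-LF. No test was made of these shares.

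Ppy and Pyy had the highest correlation of the 10 pairs of tested genes before group means were removed. Over the 12 libraries, Pearson's r of their log2 values was 0.81 (permutation p = 0.00037, adjusted over 10 pairs 0.0037) and Spearman's rho was 0.97 (permutation p = 1e-05, the smallest that 100000 draws can give, adjusted 1e-04). Pearson's r was 0.84 without the 2 libraries farthest from the median of Ppy and 0.87 without the K libraries. It was 0.68 within the 6 GDM libraries and 0.75 within the 6 lean libraries. Between deviations from the group means it was 0.53, below Sst and Rbp4 (0.61) and Pyy and Rbp4 (0.55). Sst and Ppy had r = 0.75 (permutation p = 0.0065, adjusted 0.0174; rho 0.76, permutation p = 0.0056). It was 0.38 between deviations from the group means, 0.69 without the 2 farthest libraries, 0.03 within the 6 GDM libraries and 0.95 within the 6 lean libraries, and the difference between these was not tested. Sst and Rbp4 had r = 0.72 (permutation p = 0.0087, adjusted 0.0174; rho 0.74, permutation p = 0.0076), with 0.61 between deviations from the group means, 0.87 within GDM, 0.72 within lean, 0.80 without the 2 farthest libraries and 0.54 without the K libraries. Pyy and Rbp4 had r = 0.79 (permutation p = 0.0016, adjusted 0.0080; rho 0.74, permutation p = 0.0076), with 0.55 between deviations from the group means. It came to 0.49 without GDM-HFS 3 and Lean-LF 3, the libraries farthest from the median of Pyy. It was 0.68 within GDM, 0.82 within lean and 0.83 without the K libraries, which include GDM-HFS 3. Sst and Pyy had r = 0.70 (permutation p = 0.0084, adjusted 0.0174), with 0.34 between deviations from the group means. Ppy and Rbp4 had r = 0.63 (permutation p = 0.0266, adjusted 0.0443), with 0.13 between deviations. Hhex had r between -0.14 and 0.07 with the other 4 genes (permutation p 0.662 to 0.833). The permutations took no account of the group means. The libraries also differ in rRNA share and in the length trend, whose part in these correlations was not tested.

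**Figure D5:**
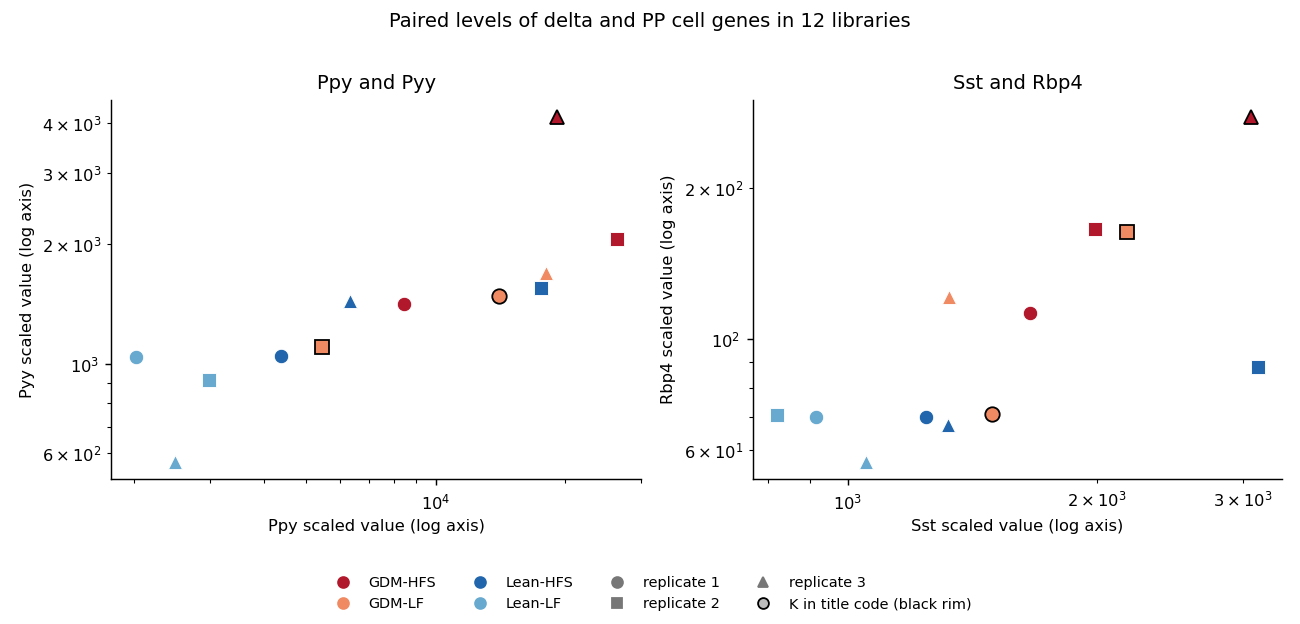
Scaled values of Pyy against Ppy (left) and of Rbp4 against Sst (right) in the 12 libraries, on log axes, with groups by colour and black rims for the letter K. The Ppy and Pyy points rise together over the 12 libraries pooled (Spearman's rho 0.97), but not within every group. Within Lean-LF the library with the lowest Ppy (2012) has the highest Pyy (1041). GDM-HFS 3 has the highest Pyy (4133) and Rbp4 (277) of all.

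Genes with the most similar pattern over the 12 libraries are given as a description. For Sst these were Igsf5 (r = 0.94), Hras (0.91), Mrpl52 (0.91), Tprg1l (0.91) and Smco4 (0.90). For Ppy they were Mapre1 (0.90), Stfa2l1 (0.88), Hsbp1 (0.87), E230034O05Rik (0.86) and Gstcd (0.85), and for Pyy Gpm6a (0.91), Sesn1 (0.88), Sumo2 (0.84) and Ddx59 (0.84). For Rbp4 they were Arpc3 (0.91), Tmbim4 (0.91), Prmt2 (0.91), Ppp1ca (0.91) and Gpatch2 (0.90). Those of Hhex were Epha3 (0.93), Serpinh1, a collagen chaperone (0.91), Acta2, the smooth muscle actin of activated stellate cells (0.90), Dkk2 (0.89) and Clmp (0.89). The 12 libraries behind these values also differ in depth, rRNA share and acinar RNA.

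Other genes known from delta and PP cells were read beside the 6. Of 11 tested further delta cell genes, 0 were higher and 1 was lower in offspring of GDM dams, and 5 had a difference above 0 (median log2 -0.31, against 0.03 over all genes, of which 6.13% were higher and 5.43% lower). Unadjusted, 2 of these 11 had a limma p under 0.05, beside 3816 of the 12339 genes tested. Of 11 tested further PP cell genes, 1 was higher and 1 lower, and 9 had a difference above 0, 6 of the 11 with an unadjusted limma p under 0.05, against 3816 of the 12339 genes tested (median 0.30). Fgb, a fibrinogen chain, was higher (log2 0.71 ± 0.214, limma adjusted p = 0.0479), with 16944 in GDM-HFS and 14206 in GDM-LF against 10958 in Lean-HFS and 8023 in Lean-LF. Slitrk6, a neuronal membrane protein gene, was lower (log2 -1.07 ± 0.272, limma adjusted p = 0.0277), with 268 and 411 against 552 and 814 in the same groups. These lists were written with earlier results of these data known.

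The receptors of the hormones did not pass. Their unadjusted counts between dams stand beside 3816 of 12339 genes with a limma p under 0.05. Of 5 somatostatin receptors, Sstr1 and Sstr4 were at or below a group mean of 1.46 and were not tested. Of the 3 tested limma called 0 (1 had an unadjusted p under 0.05, edgeR called 0 and DESeq2 1). Sstr3, which averaged 190 in offspring of GDM dams and 284 in offspring of lean dams, came closest (log2 -0.56, limma adjusted p = 0.0573). Of a list of neuropeptide Y, the Y receptors and the peptidase gene Dpp4, 4 genes were tested. Limma called 0 of them (1 unadjusted, edgeR and DESeq2 0). Npy itself averaged 63.6 in offspring of GDM dams and 37.7 in offspring of lean dams (log2 0.66, limma adjusted p = 0.148). Npy4r, the receptor that pancreatic polypeptide prefers, had group means of 0.358 to 1.80. Of the ghrelin axis, 4 genes were tested and limma called 0 (1 unadjusted, edgeR and DESeq2 0), and ghrelin itself, Ghrl, averaged 47.0 in offspring of GDM dams and 43.5 in offspring of lean dams (log2 0.16, limma adjusted p = 0.709).

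Genes of retinol handling were read beside Rbp4. Of 12 tested, 1 was higher and 0 lower (median 0.34, against 0.03 over all genes, of which 6.13% were higher and 5.43% lower). Of 6 prohormone processing genes limma called 0 (1 unadjusted, against 3816 of 12339 genes, edgeR 1, DESeq2 1), and Pam, which amidates peptides such as pancreatic polypeptide, came closest (9699 in offspring of GDM dams, 16152 in offspring of lean dams, log2 -0.80, limma adjusted p = 0.0513). Of 10 tested islet lineage transcription factors 0 were higher and 3 lower (median -0.30, and 5.43% of all genes lower), namely Nkx6-1 (log2 -0.87), Neurod1 (-0.62) and Nkx2-2 (-0.54). Of 12 genes of ion channels and exocytosis 0 were higher and 2 lower (median -0.42), namely Vamp2 (-1.03) and Rab3a (-0.68), both of vesicle fusion, beside the 5.43% of all genes that were lower. Of the 5 other islet hormone genes limma called 0 (0 unadjusted, edgeR 0, DESeq2 1). For HFS weaning and for the interaction, limma, edgeR and DESeq2 called 0 genes of each of these lists, and 0 to 2 per list had an unadjusted limma p under 0.05.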

How the data were processed

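Islet RNA of 12 rat offspring was sequenced after rRNA removal, from strand-specific libraries per the labels' protocols. The submitters' processing notes list STAR 2.5.1b (aligner), HOMER 4.9 (counting) and DESeq2 with no version. The counting covered exons of rn5 genes on both strands, per the file headers. What the authors deposited is a signal scaled to depth. FPKM stands in the header, yet no division by length was made: every library's values are whole multiples of 1 step. With that step as 1 read, 100% of the values up to 1000 reads were whole (tolerance 0.1 of a read), so read counts were recovered from the deposited signal. The treatment of reads with several matches is unstated.

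Median-ratio factors over the 11337 genes above 0 in every library rescaled the libraries. The 12339 of 17407 genes whose scaled values averaged at least 1 were tested with limma 3.58.1 in R 4.3.3 on log2(scaled value + 1), with a mean-variance trend, 1 mean per group over all 12 libraries and Benjamini-Hochberg adjustment within each of 7 contrasts (threshold 0.05). Differences are on that log2 scale, which understates low genes. The design had assumed FPKM, and the log-scale test was kept for the signal. edgeR 4.0.16 and DESeq2 1.42.0 on the recovered counts were alternatives. The fit was also run on simulated counts that gave all genes the same spread. They had no length trend and no rRNA difference, so that run does not cover these properties of the libraries. Libraries of a group differed beyond counting noise in every pair, so none was taken for a library deposited more than once, and each was counted as a replicate because the labels list it as a separate sample. The K libraries were left out in 1 alternative.

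Groups and replicate numbers came from the titles, matched to columns by name. The command in the file header lists libraries within groups in another order, which would touch replicate numbers and the letter K but not the groups. The 6 genes and all lists were chosen with earlier results of these data known. Named by rule were the 6 genes, of each list the genes past the threshold (up to 6 by size), and for each tested gene the 5 genes of highest Pearson's r, leaving out symbols that start with LOC or RGD. Some genes that this rule names are not reported here. Other list genes were named after their values were seen. Permutation tests were two-sided. Markers of alpha, beta, delta, PP, acinar, duct, endothelial, adipocyte, stellate, macrophage and gut cells were summed per library.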

Additional observations from a re-analysis of the deposited data

How the results depend on the processing

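The count of the 5 tested genes past the threshold between dams was 2. It was 3, with Pyy added, with DESeq2, with edgeR on DESeq2 size factors and with a filter at a mean of at least 5. It was 1 without the mean-variance trend and with the acinar level as a covariate, and 0 with the length trend removed, with the rRNA share as a covariate and without the K libraries. Leaving out 1 library at a time gave 0 to 3, with 0 without GDM-HFS 3, Lean-HFS 1, Lean-LF 1 or Lean-LF 2 and 1 without GDM-HFS 2. The cause was not tested. Over all genes the count in this contrast was 1426, against 1487 with edgeR, 2237 with DESeq2, 674 without rescaling, 671 without the trend, 2568 with library weights, 545 with the length trend removed, 474 with the acinar covariate, 0 with the rRNA covariate and 0 without the K libraries. Without the K libraries GDM-LF is a single library, assumed to vary like the others. For weaning diet and for the interaction, 0 of the 5 tested genes passed under every alternative run.

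Signs turned only in differences that did not pass. The Pyy interaction (0.0042) became -0.13 with library weights, -0.0049 with the acinar covariate and -0.69 without the K libraries, and ran from -0.42 to 0.35 when 1 library was left out. Without the K libraries, Hhex between dams was -0.054, Hhex between weaning diets 0.12, the Rbp4 interaction -0.015 and Ppy in GDM-HFS against GDM-LF -0.27. Hhex between weaning diets ran from -0.37 to 0.022 when 1 library was left out. Sst in GDM-HFS against Lean-HFS was -0.16 with the length trend removed and -0.014 with the rRNA covariate, and Rbp4 in Lean-HFS against Lean-LF was -0.18 without rescaling. Ppy in GDM-LF against Lean-LF passed with DESeq2 (2.32), library weights (2.45), the rRNA covariate (2.16) and without Lean-LF 3 (2.18). Over 18 same-numbered pairs of libraries the correlation of deviations from group means was -0.50 to 0.20, with 5 over 0.1. Differently numbered pairs ran from -0.30 to 0.45. These values cannot show whether replicate numbers mark a shared litter or batch. With the replicate block, 1140 genes passed between dams and the calls of Ppy (1.61, limma adjusted p = 0.0293) and Rbp4 (0.99, 0.0222) held. The ratios of Ppy to Sst and of Ppy to Gcg, the only ones recomputed, did not pass under any alternative run, at 0.79 to 1.40 and 0.61 to 1.44 when 1 library was left out. Depth limits Ghsr and Hhex.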
